A study of Zea mays with 24 samples.

Results

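A set of 69 maize gene features was examined whose transcript level moved with salt in young shoots of both cultivars of the series while staying below a smaller limit in roots. The members were chosen by measured values, the salt responses themselves, expressed as L, the log2 ratio of mean FPKM + 1 under salinity to mean FPKM + 1 under water, where FPKM is fragments per kilobase of feature, scaled to the library total. A member had an absolute L of at least 1 with the same sign in ST and SS shoots, and in ST and SS roots an absolute L below the log2 of 1.5, a 1.5-fold ratio of FPKM + 1, called the root limit. The rule was applied to the 44146 features with Zm00001d identifiers among 50202 features in all, leaving out 1 identifier, Zm00001d037894. Of the 69 members, 26 rose in salt-treated shoots, the risers, and 43 fell, the fallers.

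RNA of maize (Zea mays) seedlings was sequenced as paired ends of 150 bp. The 8 groups were salinity-treated and watered young shoots of cultivar ST, salinity-treated and watered young shoots of cultivar SS, and the same 4 combinations of cultivar and treatment for roots. Seedlings received the 100 mM salinity solution or water at the 3-leaf stage, and no transgene or mutation is given for either cultivar. Each group had 3 libraries, described as biological replicates, with nothing on whether plants were pooled or on the hours of treatment, so that p-values measure the spread between these libraries.

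Salt reaches a plant through its roots, which meet both the lowered water potential of the soil solution and the ions themselves. The shoot receives the water deficit first and sodium later, carried upward in the transpiration stream, while the hormone abscisic acid relays water shortage between and within organs. Leaves answer with closed stomata, slower growth and altered photosynthesis, and roots with changes in ion transport, wall deposition and water uptake, so that organs of 1 plant can differ in which genes change. The Zm00001d identifiers are not paired with gene names in the files, and the reference gene table matched 0 of the 44146, so the members are given by identifier with no function.

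Library totals ran from 19747198 to 28825226 reads, and replicate libraries correlated across features with a Pearson r of 0.9953 or more. No library was treated as a duplicate, and none was left out of the values below. For lack of gene names, the tissue labels could not be set against named root or shoot markers. By level alone, 582 features were at least 20-fold higher in shoots than in roots of both cultivars and 818 were at least 20-fold higher in roots. In tissue RNA, fewer cells of a type and less RNA per cell cannot be told apart.

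The salt responses of the members chose them, and they are given here as a description. Among the 26 risers, L ran from 1.02 to 3.16 in ST shoots, with a median of 1.21, and from 1.07 to 3.11 in SS shoots, with a median of 1.48. The 43 features that fell had L from -2.71 to -1.01 in ST shoots, with a median of -1.42, and from -3.52 to -1.03 in SS shoots, with a median of -1.47. The median L of all features tested in shoots was -0.00 in ST and 0.05 in SS. An absolute L of at least 2 in both cultivars was reached by 1 riser and 4 members that fell. It was reached by 3 risers and 7 fallers in ST shoots, and by 5 risers and 11 fallers in SS shoots.

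Group means in shoots show the levels behind these ratios. The median riser had 8.74 FPKM under salinity and 2.27 FPKM under water in ST shoots, and 18.8 FPKM under salinity and 4.68 FPKM under water in SS shoots. The median of the members that fell was 2.15 FPKM under salinity and 9.80 FPKM under water in ST shoots, and 2.71 FPKM under salinity and 11.4 FPKM under water in SS shoots. Under salinity, 15 of the members that fell were below 1 FPKM in ST shoots and 10 in SS shoots, 5 of them in both. Because 1 was added before taking logarithms, L understates the relative change of such low features.

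The 3 salinity libraries lay above the 3 water libraries for 26 of 26 risers in the shoots of each cultivar. The background was 23.5% of all features tested in ST shoots and 36.3% in SS shoots. The salinity libraries lay below the water libraries for 42 of 43 fallers in ST shoots, against 27.7% of all features, and for 41 of 43 in SS shoots, against 24.6%. In the moderated test of limma, with Benjamini-Hochberg adjustment at 0.05, salinity against water was called for 68 members in ST shoots and 67 in SS shoots, beside 41.7% of all features in ST shoots and 56.6% in SS shoots. The rule drew on these same libraries and on this same contrast, which largely fixed both kinds of count, so nothing is read from them or from their distance to the background.

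**Figure D1:**
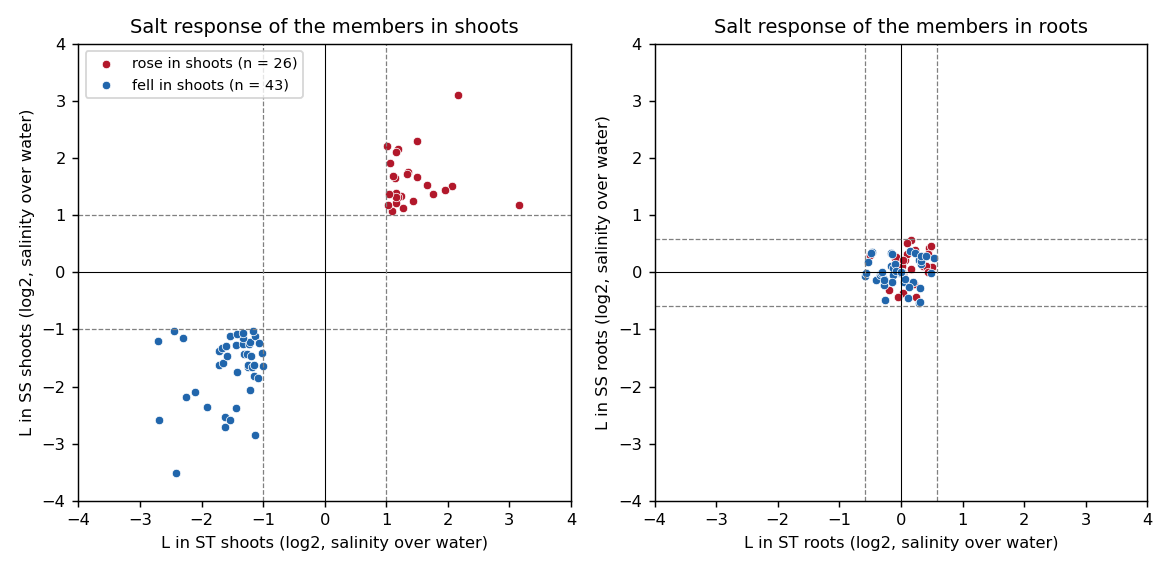
Log2 ratio L of salinity to water for the 69 members, with ST on the horizontal axis and SS on the vertical axis, in shoots (left) and in roots (right). Risers and fallers are coloured apart and the limits of the rule are drawn as lines. Shoot values reach 3.16 and -3.52, while root values stay between -0.58 and 0.56.

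The sizes of the ST and SS shoot responses ran only loosely together within each direction. Across the 26 risers the Pearson r between L in ST and L in SS was 0.06, and across the 43 fallers it was 0.26. The points share their libraries, and the limit at 1 narrows their range. The absolute L was larger in SS than in ST shoots for 18 of 26 risers and for 23 of 43 fallers.

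The largest gap between the cultivars' shoot responses among risers was that of Zm00001d003938, with an L of 3.16 in ST and 1.18 in SS. It had 8.37, 8.17 and 8.36 FPKM in salinity-treated ST shoots and 0.0621, 0.0638 and 0 FPKM in watered ST shoots. Its SS shoots had 1.32, 1.52 and 1.43 FPKM under salinity and 0.0997, 0.0306 and 0.0663 FPKM under water. Salinity and water libraries were apart in both cultivars, and the water values rest on 0 to 3 reads per library. Its root L of 0.56 in SS, close to the limit, came from 16 to 29 reads per salinity library and 1 to 6 reads per water library.

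The faller Zm00001d006446 had the lowest value of L in ST minus L in SS, with an L of -2.71 in ST and -1.21 in SS. Its response was thus also the stronger in ST. Its ST shoots had 6.06, 5.75 and 6.29 FPKM under salinity and 44.2, 44.6 and 46.1 FPKM under water. Its SS shoots had 9.26, 9.57 and 8.13 FPKM under salinity and 22.5, 21.7 and 21.9 FPKM under water. Watered ST shoots were the highest group and salinity-treated ST shoots the lowest, so the order of the cultivars under salinity was the reverse of that under water. The difference of ST against SS was -0.50 (SE 0.06, limma adjusted p = 1.82e-06) in salinity-treated shoots and 0.995 (SE 0.06, limma adjusted p = 1.43e-09) in watered shoots, both on the log2(FPKM + 1) scale. Both estimates enter the gap in L by which this member was picked, so nothing is read from their p-values. In roots it lay between 2.98 and 5.09 FPKM in all 12 libraries. Other members responded more strongly in SS shoots. The faller Zm00001d029359 had an L of -1.13 in ST and -2.85 in SS, and the riser Zm00001d052213 had 1.02 in ST and 2.22 in SS.

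In roots the rule left no room for large changes. Of the 26 risers, 16 had an L above 0 in both roots and 2 had an L below 0 in both. Of the 43 fallers, 9 were above 0 in both roots and 12 below 0 in both. The median root L of the risers was 0.15 in ST and 0.17 in SS, against -0.01 in ST and -0.00 in SS for the fallers and 0.03 in ST and 0 in SS for all features tested in roots. These shifts lie within the limit the rule set, and they are a description.

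Small root changes could still exceed the spread between replicates. Of 47 members tested in roots, limma called 25 in ST roots, 16 of them higher and 9 lower under salinity, where 45.8% of all features were called, 26.1% higher and 19.7% lower. In SS roots 18 of 47 were called, 12 higher and 6 lower, beside 38.7% of all features, 19.7% higher and 19% lower. The other 22 members did not pass the filter on low values in roots, which asked for 1 FPKM in 3 libraries. The rule used this same contrast, so these counts are a description and nothing is read from them about the members as a set. Being below the root limit is no statement that a member was unchanged there.

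**Figure D2:**
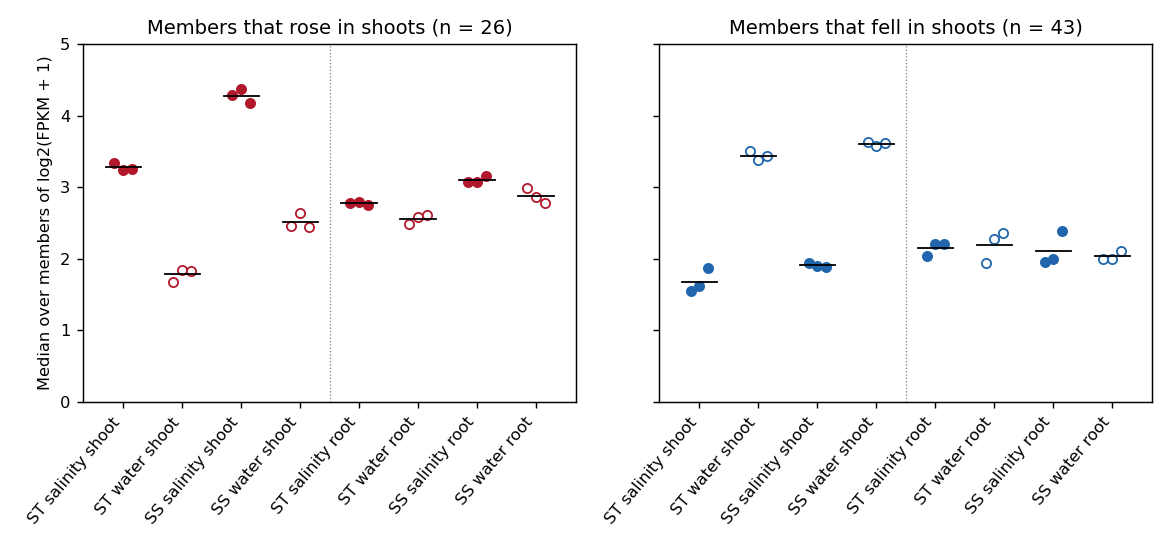
Median log2(FPKM + 1) of the 26 risers and of the 43 fallers in each of the 24 libraries, filled symbols for salinity and open symbols for water, with shoots left of roots and ST left of SS. The risers' medians are 3.24 to 3.34 in salinity-treated and 1.68 to 1.84 in watered ST shoots, and 2.75 to 2.79 and 2.49 to 2.62 in the matching roots.

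Of the features past the limit in both shoots, 114 rose and 91 fell. Values below the root limit in both cultivars were found for 26 of the 114 (22.8%) and 43 of the 91 (47.3%). Among the 114, 54 moved the same way past the root limit in both roots, 22 in ST roots only, 7 in SS roots only, and 5 moved the opposite way in a root. Among the 91, 14 moved the same way in both roots, 10 in ST roots only, 11 in SS roots only, and 13 the opposite way in a root. The mirrored rule, with roots and shoots exchanged, held for 90 features, and 33 features passed the limit of 1 the same way in all 4 responses.

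The limits divided close neighbours. The member nearest to the shoot limit, Zm00001d002093, had an L of -1.01 in ST and -1.64 in SS shoots, while Zm00001d038514, just outside, had 1.32 in ST and 0.9961 in SS shoots. The member nearest to the root limit, Zm00001d023994, had -0.58 in ST and -0.06 in SS roots, while Zm00001d010179, just outside, had -0.37 in ST and -0.59 in SS roots.

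The members did not share 1 level in roots. By their 4 root group means, 20 members were below 1 FPKM in every root group (8 risers and 12 fallers), 28 were at 5 FPKM or more in every root group (12 risers and 16 fallers), and 21 lay between (6 risers and 15 fallers). For the first kind the added 1 FPKM holds the root L near 0. The second kind had enough reads in roots for L to follow the ratio of the levels.

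Members nearly silent in roots had a highest root group mean of 0.703 FPKM among risers and 0.691 FPKM among fallers. The median of the 8 risers was 4.48 FPKM under salinity and 0.779 FPKM under water in ST shoots, and 10.6 FPKM under salinity and 3.29 FPKM under water in SS shoots. The median of the 12 fallers was 2.48 FPKM under salinity and 10.4 FPKM under water in ST shoots, and 2.18 FPKM under salinity and 9.67 FPKM under water in SS shoots. With a pseudocount of 0.1 in place of 1, 13 of these 20 reached the root limit in at least 1 root, and all 20 stayed past 1 in both shoots. The same change moved 1 of the 28 members with the higher root levels past the root limit.

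The member of this kind that fell most was Zm00001d011661, with L of -2.69 in ST and -2.58 in SS shoots. It had 1.46, 0.636 and 0.499 FPKM in salinity-treated ST shoots and 11.1, 11.1 and 10.8 FPKM in watered ST shoots. The values in SS shoots were 6.25, 5.12 and 4.30 FPKM under salinity and 33.7, 36.5 and 38.4 FPKM under water. Salinity libraries were far below water libraries in both cultivars, with no overlap. Its root libraries held 0 to 2 reads each, and the 3 salinity-treated ST root libraries held 0, which allows a level of up to 0.0290 FPKM when 3 reads over the group are taken as the limit.

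The most abundant riser of this kind, Zm00001d040979, was picked after its values were seen. It had 951, 965 and 998 FPKM in salinity-treated ST shoots and 249, 244 and 255 FPKM in watered ST shoots. In SS shoots it had 323, 312 and 327 FPKM under salinity and 117, 113 and 121 FPKM under water. Each group stood clear of the others, with the highest values in salinity-treated ST shoots. In roots it reached 0.412 FPKM at most, on 0 to 8 reads per library, so the same feature was among the strongest in shoots and near the detection limit in roots.

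The most abundant faller of this kind, Zm00001d046297, was also picked after its values were seen. It had 36.7, 28.4 and 28.5 FPKM in salinity-treated ST shoots and 155, 157 and 159 FPKM in watered ST shoots. SS shoots held 144, 122 and 121 FPKM under salinity and 280, 290 and 293 FPKM under water. The groups did not overlap in either cultivar, and salinity-treated SS shoots stayed below watered ST shoots. No root library exceeded 0.322 FPKM.

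Among members with intermediate root levels was the riser with the largest response by the smaller of its shoot values, Zm00001d033231, with L of 2.17 in ST and 3.11 in SS. It had 6.53, 6.58 and 6.06 FPKM in salinity-treated ST shoots and 0.575, 0.818 and 0.544 FPKM in watered ST shoots. The SS shoot libraries had 50.02, 50.3 and 45.7 FPKM under salinity and 5.05, 4.66 and 4.60 FPKM under water. Both cultivars separated completely, and watered SS shoots were near the level that ST shoots reached under salinity. In roots its 12 libraries lay between 1.22 and 1.87 FPKM, with L of 0.03 in ST and -0.04 in SS.

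Among risers with a mean of at least 5 FPKM in the higher shoot group of both cultivars, Zm00001d022132 came second by this measure, with L of 2.07 in ST and 1.51 in SS shoots. It had 9.996, 8.79 and 8.77 FPKM in salinity-treated ST shoots and 1.42, 1.30 and 1.59 FPKM in watered ST shoots. In SS shoots the levels were 11.3, 11.2 and 11.9 FPKM under salinity and 3.45, 3.38 and 3.32 FPKM under water. The shoot groups did not overlap, and the cultivars were closer under salinity than under water. Its roots had 6.96, 7.24 and 7.23 FPKM under salinity and 5.58, 5.37 and 5.01 FPKM under water in ST, an L of 0.37 with no overlap, and 4.71, 5.07 and 5.35 FPKM under salinity and 4.23, 4.41 and 5.04 FPKM under water in SS, with overlap.

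**Figure D3:**
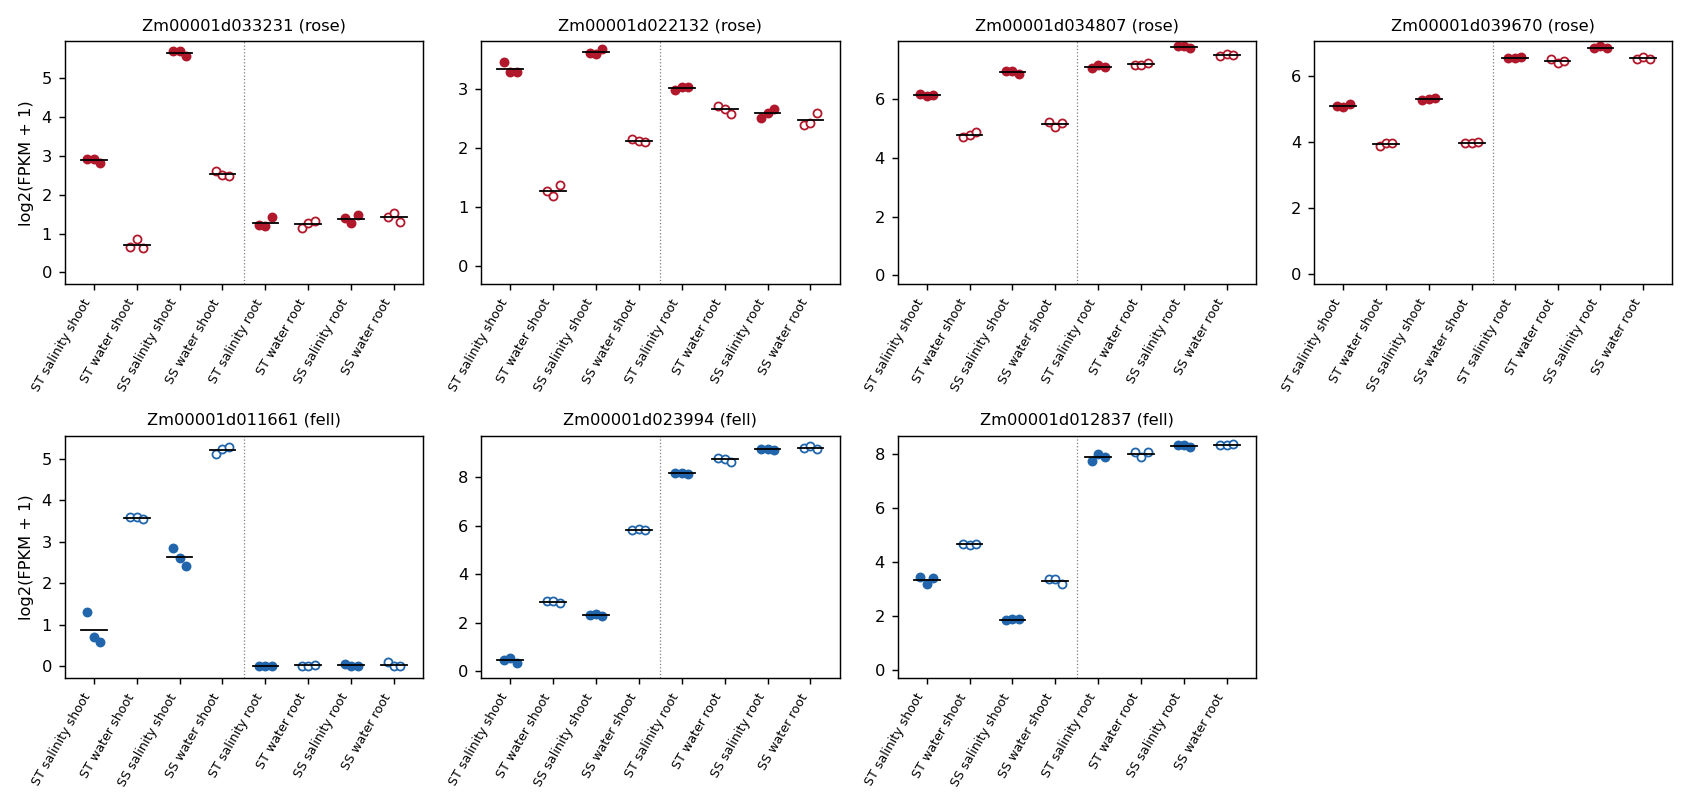
Level as log2(FPKM + 1) in all 24 libraries for members named by level or response, filled symbols for salinity, open symbols for water and black bars for group means, with shoots left of roots and ST left of SS. Zm00001d033231 has salinity-treated shoots between 6.06 and 50.3 FPKM while its roots stay between 1.22 and 1.87 FPKM, and Zm00001d023994 has salinity-treated shoots at 4.08 FPKM or less beside roots at 276 FPKM or more.

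Levels in the 2 organs were then compared under water, a contrast the rule did not use directly. All 69 members entered the fit of all 24 libraries, but 22 of them, among them the 20 nearly silent in roots, did not pass the filter on low values in roots. Those 22 entered through their shoot levels, so a higher level in shoots was built into them, and they are given apart. Of the other 47, limma called 44 in ST shoots against ST roots, 15 higher and 29 lower in shoots, where 85.1% of all features were called, 21.5% higher and 63.6% lower. In SS 44 of the 47 were called, 17 higher and 27 lower in shoots, where 82.2% of all features were called, 24.9% higher and 57.3% lower. All features here include those that passed the filter through roots alone, while every member needed a level in shoots. The directions of the 47 are therefore not set against a matched background, and nothing is read from them. Of the 22, 19 were called higher in shoots in ST and 21 in SS, and 0 lower, from which nothing is read.

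The direction of these organ differences depends on scaling for features as a whole. Median-of-ratios scaling moved the median log2 difference of all features by 0.56 in ST and 0.41 in SS. The share of called features that were higher in shoots was 47.6% in ST and 47.3% in SS with that scaling, and 25.3% in ST and 30.3% in SS on FPKM as deposited. Over all 69 members, those 22 included, the counts were 37 higher and 26 lower in ST and 41 higher and 23 lower in SS with that scaling, and 34 higher and 29 lower in ST and 38 higher and 27 lower in SS on FPKM as deposited.

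Most of the 16 fallers with root levels of 5 FPKM or more were less abundant in shoots than in roots. Their medians were 2.41 FPKM under salinity and 13.3 FPKM under water in ST shoots, beside 98.0 FPKM under salinity and 91.3 FPKM under water in ST roots. In SS their medians were 3.32 FPKM under salinity and 23.2 FPKM under water in shoots, beside 93.3 FPKM under salinity and 115 FPKM under water in roots. Under water, 13 of the 16 were lower in shoots than in roots of both cultivars, and 10 of the 16 were at least 4-fold lower in each cultivar. The 16 were picked by root level, with no such floor in shoots, so a lower shoot level was partly built in. Of all features, 63.6% in ST and 57.3% in SS were called lower in shoots, and nothing is read from the 13. Their shoot levels under water ran up to 924% of the root level in ST and 903% in SS, so the 16 are not of 1 kind. The median shoot level as a percentage of the root level was 3.14% under salinity and 11.5% under water in ST, and 2.71% under salinity and 11.4% under water in SS.

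Zm00001d023994 was both the faller with the second strongest shoot response, by the smaller of its shoot values, and the one with the highest root levels, by the lowest of the 4 root means. It had 0.363, 0.465 and 0.268 FPKM in salinity-treated ST shoots and 6.33, 6.51 and 6.01 FPKM in watered ST shoots. SS shoots had 3.93, 4.08 and 3.86 FPKM under salinity and 55.3, 57.3 and 54.8 FPKM under water. The groups did not overlap, and its L of -3.52 in SS shoots was the lowest of any member. Its roots had 287, 286 and 276 FPKM under salinity and 445, 433 and 395 FPKM under water in ST, and 575, 569 and 560 FPKM under salinity and 589, 614 and 576 FPKM under water in SS. ST roots were thus lower under salinity with no overlap, at an L of -0.58 just inside the limit, while in SS roots the lowest water library, 576, lay just above the highest salinity library, 575.

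Zm00001d012837 had the next highest root levels among fallers, with shoot L of -1.31 in ST and -1.44 in SS. It had 9.87, 8.22 and 9.62 FPKM in salinity-treated ST shoots and 24.6, 23.9 and 24.4 FPKM in watered ST shoots. Its SS shoots had 2.60, 2.74 and 2.69 FPKM under salinity and 9.32, 9.49 and 8.06 FPKM under water. Shoots of both cultivars separated by treatment without overlap, while its roots had 214 to 255 FPKM under salinity and 238 to 271 FPKM under water in ST, which overlap, and 307 to 321 FPKM under salinity and 322 to 327 FPKM under water in SS.

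Features with a strong bias to either organ were measured beside the members, in a description added after the data were seen. Of the 582 features at least 20-fold higher in shoots, 7 were members, 1 riser and 6 fallers, and of the 818 features at least 20-fold higher in roots, 4 were members, all of them fallers. The median L of the 582 was -0.06 in ST and -0.36 in SS shoots. The summed level of the 818 was 387 to 408 FPKM in salinity-treated and 648 to 673 FPKM in watered ST shoots, and 503 to 539 FPKM in salinity-treated and 694 to 736 FPKM in watered SS shoots. As a share of the sum in roots this was 0.879% under salinity and 1.21% under water in ST, and 1.11% under salinity and 1.22% under water in SS. The median L of the 818 was -0.01 in ST and -0.02 in SS shoots, 49 of them had no reads in any shoot library, and 6 had an L of -1 or lower in both shoots. The part of root RNA in the shoot libraries in the falls of these 4 members was not tested.

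Risers at 5 FPKM or more in every root group were closer to their root levels in shoots. Their medians were 16.6 FPKM under salinity and 7.27 FPKM under water in ST shoots, beside 18.4 FPKM under salinity and 18.6 FPKM under water in ST roots. In SS their medians were 29.7 FPKM under salinity and 8.65 FPKM under water in shoots, beside 18.3 FPKM under salinity and 15.4 FPKM under water in roots. The number lower in shoots than in roots was 10 of 12 under salinity and 10 under water in ST, and 4 under salinity and 11 under water in SS. These 12 were also picked by root level, which favours lower levels in shoots.

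Zm00001d034807 had the highest root levels among risers, with shoot L of 1.36 in ST and 1.76 in SS. It had 70.7, 68.0 and 69.6 FPKM in salinity-treated ST shoots and 25.2, 26.4 and 28.1 FPKM in watered ST shoots. The values in SS shoots were 121, 122 and 115 FPKM under salinity and 35.8, 32.0 and 35.5 FPKM under water. Treatments did not overlap in shoots, and the shoot level was 51.1% of the root level under salinity and 18.6% under water in ST, and 55.0% under salinity and 19.2% under water in SS. Its ST roots had 131, 141 and 136 FPKM under salinity and 140, 142 and 147 FPKM under water, which overlap, and its SS roots had 219, 222 and 211 FPKM under salinity and 175, 183 and 181 FPKM under water, which do not.

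Zm00001d039670 came next, with shoot L of 1.16 in ST and 1.32 in SS. It had 33.2, 32.7 and 34.3 FPKM in salinity-treated ST shoots and 13.9, 14.8 and 14.7 FPKM in watered ST shoots. In SS shoots it had 37.5, 38.1 and 39.0 FPKM under salinity and 14.6, 14.5 and 15.1 FPKM under water. The cultivars' shoot levels were close, with a log2 difference of ST against SS of -0.19 under salinity (SE 0.04, limma adjusted p = 0.000793) and -0.03 under water (SE 0.04, limma adjusted p = 0.530). Its roots were higher than its shoots in every group, at 91.3 to 93.3 FPKM under salinity and 82.6 to 89.7 FPKM under water in ST and 113 to 118 FPKM under salinity and 90.4 to 94.6 FPKM under water in SS.

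**Figure D4:**
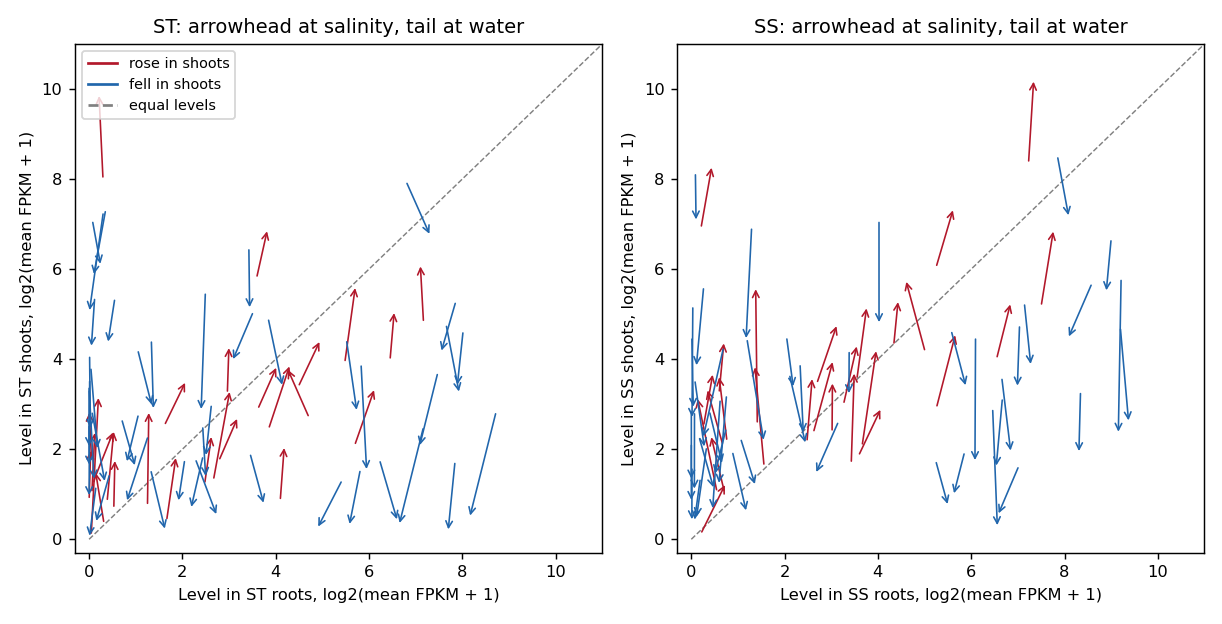
Level in shoots (vertical) against level in roots (horizontal), both as log2(mean FPKM + 1), for each member, ST left and SS right, with an arrow whose head is the salinity value and whose tail is the water value. Of the 16 fallers at 5 FPKM or more in every root group, 13 lie below the line of equal levels in both cultivars under water, and the median shoot level of the 16 is 3.14% of the root level under salinity and 11.5% under water in ST. The 16 were picked by root level, which partly builds in their place below the line.

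The cultivars' levels were compared next, in contrasts that the rule did not use, though on libraries that entered it through L. In watered shoots limma called 59 of 69 members between ST and SS, 85.5%, beside 80.1% of all features tested, so being called was near the background. The median absolute log2 difference was 0.92 for members and 0.51 for all features. Members needed an absolute L of at least 1 in both shoots, while other features needed only to pass the filter. Levels were not matched between them, so nothing is read from these medians. Of the members called, 19 were higher and 40 lower in ST, where 35% of all features were called higher and 45% lower. With median-of-ratios scaling, 20 members were higher and 38 lower.

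Most risers were lower in ST, and the difference between risers and fallers was not tested. In watered shoots 4 of 26 risers were called higher and 19 lower in ST, with a median log2 difference of -0.76, while the median of all features was -0.09. Of the 43 fallers, 15 were called higher and 21 lower in ST, with a median of -0.20. A difference of at least 1 in absolute log2 was called for 12 members higher and 19 lower in ST, 31 of 69, where 27.8% of all features passed it. Levels were not matched here either, so nothing is read from that share.

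The same contrast was taken in salinity-treated shoots, on libraries that also entered the rule through L. Limma called 59 of 69 members, 18 higher and 41 lower in ST, beside 80.1% of all features, 29% higher and 51.1% lower. Median-of-ratios scaling moved the median of all features by 0.20 and the share of called features that were higher in ST to 49.8%, against 36.2% on FPKM as deposited, and gave 20 members higher and 38 lower. For risers the counts were 3 higher and 21 lower in ST, with a median log2 difference of -0.86, while the median of all features was -0.19.

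Roots of the cultivars also differed. In watered roots 37 of the 47 members tested were called, 16 higher and 21 lower in ST, beside 70.7% of all features, 39.4% higher and 31.4% lower. In salinity-treated roots 38 of 47 were called, 17 higher and 21 lower in ST, beside 73.3% of all features, 42.6% higher and 30.8% lower. The median absolute log2 difference in watered roots was 0.71 for the members tested and 0.37 for all features. Members below the filter in roots are not among these 47. Some of the 47 reached 1 FPKM in the roots of 1 cultivar only, such as Zm00001d039914 in SS and Zm00001d029293 in ST. For these the filter built in the direction. They were not counted apart, so nothing is read from the root counts or from the median of 0.71.

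The widest cultivar difference in either organ belonged to the riser Zm00001d039914. It had 4.03, 3.66 and 5.65 FPKM in salinity-treated ST shoots and 0.682, 0.561 and 3.56 FPKM in watered ST shoots. SS shoots held 1222, 1217 and 1193 FPKM under salinity and 310, 323 and 324 FPKM under water. All ST values were far below all SS values, at a log2 difference of -7.13 in watered shoots (SE 0.29, limma adjusted p = 5.01e-11) and -7.10 in watered roots (SE 0.05, limma adjusted p = 4.66e-17). Watered ST shoot replicate 3 held 72 reads of it and the other 2 held 15 and 12, and without that library its L in ST shoots was 1.75 in place of 1.07. In ST roots it had 8 to 10 reads per salinity library and 1 to 3 per water library, so that its root L of 0.41 there rests on few reads, beside 157 to 167 FPKM under salinity and 143 to 154 FPKM under water in SS roots.

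The faller Zm00001d016841 was likewise far lower in ST. It had 1.34, 1.69 and 1.49 FPKM in salinity-treated ST shoots and 5.33, 4.43 and 4.83 FPKM in watered ST shoots. The SS shoot libraries had 42.3, 44.5 and 41.3 FPKM under salinity and 105, 104 and 102 FPKM under water. The treatments did not overlap in either cultivar, and ST against SS was -4.16 (SE 0.06, limma adjusted p = 2.51e-15) in watered shoots and -6.58 (SE 0.07, limma adjusted p = 5.68e-16) in watered roots. Its roots had 3.86 to 5.19 FPKM in ST and 467 to 516 FPKM in SS over both treatments. On FPKM as deposited, watered shoots and roots of ST were 0.12 apart and not called (SE 0.07, limma adjusted p = 0.0943), while in SS shoots stood 2.30 below roots on the log2 scale. Median-of-ratios scaling moved the median of such organ differences over all features by 0.56 in ST and 0.41 in SS, more than that 0.12.

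The fallers Zm00001d018455 and Zm00001d024068 stood out as higher in ST shoots. Zm00001d018455 had 17.2, 18.9 and 20.5 FPKM in salinity-treated ST shoots and 40.9, 40.6 and 41.0 FPKM in watered ST shoots. In SS shoots the levels were 1.07, 0.97 and 1.30 FPKM under salinity and 4.12, 3.27 and 4.49 FPKM under water. All ST values were above all SS values, at a log2 difference of 3.08 in watered shoots (SE 0.09, limma adjusted p = 1.56e-12). Zm00001d024068 had 3.53, 4.23 and 5.05 FPKM under salinity and 17.0, 15.7 and 16.5 FPKM under water in ST shoots, and 0.8203, 0.520 and 0.861 FPKM under salinity and 3.71, 3.63 and 3.12 FPKM under water in SS shoots. Here salinity-treated ST and watered SS shoots were next to each other and their ranges overlapped, and the difference in watered shoots was 1.96 (SE 0.11, limma adjusted p = 9.93e-10). Both were nearly silent in roots, with at most 0.709 FPKM for Zm00001d018455 and 0 to 2 reads per library for Zm00001d024068.

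In watered roots, among members averaging at least 5 FPKM there, the largest differences with ST higher were those of Zm00001d003197 and Zm00001d002788. The riser Zm00001d003197 had 16.6, 19.2 and 17.6 FPKM under salinity and 25.9, 26.2 and 24.3 FPKM under water in ST roots, and 10.9, 10.9 and 10.6 FPKM under salinity and 8.02, 8.36 and 9.27 FPKM under water in SS roots. Salinity was lower than water in ST roots and higher in SS roots, with no overlap in either, at L of -0.50 in ST and 0.31 in SS, inside the limit. Its shoots had 12.5, 14.3 and 13.1 FPKM under salinity and 4.94, 5.89 and 5.31 FPKM under water in ST, and 18.9, 23.2 and 16.4 FPKM under salinity and 7.998, 6.76 and 5.70 FPKM under water in SS. Under water ST was 1.47 higher in roots (SE 0.06, limma adjusted p = 2.72e-10) and 0.29 lower in shoots, an estimate of -0.29 (SE 0.12, limma adjusted p = 0.0428).

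The faller Zm00001d002788 was higher in ST in both organs. Its roots had 7.05, 7.85 and 7.08 FPKM under salinity and 9.52, 11.3 and 10.9 FPKM under water in ST, and 4.36, 4.70 and 4.43 FPKM under salinity and 3.004, 3.499 and 3.32 FPKM under water in SS. As with Zm00001d003197, roots were lower under salinity in ST and higher in SS with no overlap, at L of -0.47 in ST and 0.36 in SS. Its shoots had 13.9, 14.0 and 14.8 FPKM under salinity and 30.8, 33.0 and 34.9 FPKM under water in ST, and 3.10, 2.90 and 3.63 FPKM under salinity and 13.8, 10.8 and 11.3 FPKM under water in SS. ST against SS was 1.44 in watered roots (SE 0.07, limma adjusted p = 1.93e-09) and 1.39 in watered shoots (SE 0.09, limma adjusted p = 3.47e-09).

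**Figure D5:**
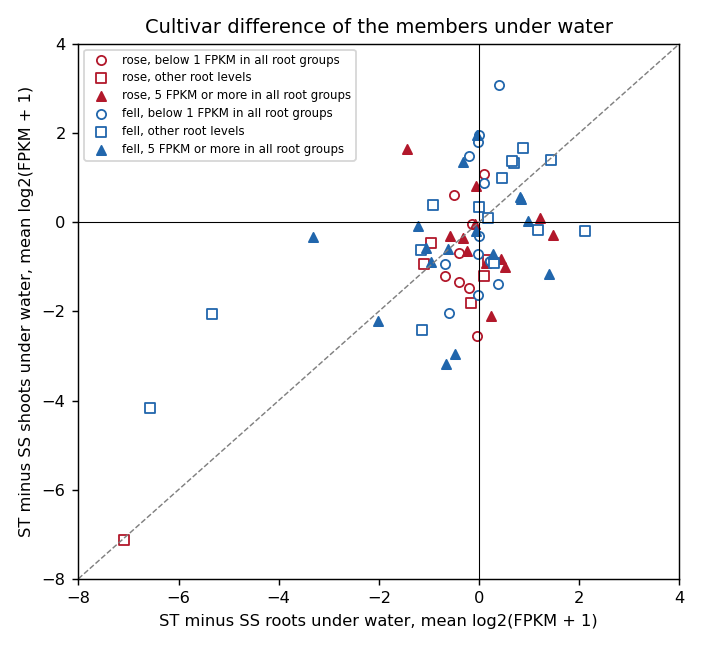
Difference of ST against SS under water in mean log2(FPKM + 1) for each of the 69 members, shoots on the vertical and roots on the horizontal axis, with symbols by direction and root level and a dashed line where both organs differ equally. Zm00001d039914 lies at -7.13 in shoots and -7.10 in roots, while Zm00001d003197 lies at -0.29 in shoots and 1.47 in roots.

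Whether the cultivar difference itself differed between organs was tested as an interaction of cultivar and organ under water, a test added after the data were seen. Of the 47 members that passed the filter in roots, limma called 35, 15 with a larger ST minus SS difference in shoots and 20 with a smaller one, where 64.5% of all features were called, 24.6% larger and 39.9% smaller. Of the other 22, 16 were called, but their root values are low and their interaction largely restates the cultivar difference in shoots. Over all 69 members the counts were 22 larger and 29 smaller, or 25 larger and 29 smaller with median-of-ratios scaling, which moved the median of all features by 0.16. That scaling put the share of called features that were larger in shoots at 51.2%, against 38.1% on FPKM as deposited.

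Feature length, which did not enter the rule, was recovered with the reads. The median length was 1220.5 bases for risers, with a range of 315 to 3286, and 1187 bases for fallers, with a range of 278 to 2411. The 22798 Zm00001d features tested in shoots had a median of 1560 bases and quartiles of 1013 and 2298. How strand was treated in counting is not stated, so reads of overlapping features may be shared among members and other features. Whether reads of near-identical copies are shared was not tested.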

How the data were processed

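For each of the 24 libraries the authors deposited FPKM for 50202 features. TopHat2, Cufflinks and Cuffdiff are named per the submitters' processing notes, with no role or version, together with the build B73 RefGen_v3. The Zm00001d identifiers belong to a later gene set, so no coordinates are given. Lengths and library totals that make the deposited FPKM whole reads, within 0.002 reads, were found for 40811 of the 40811 features with a value (100%). Whether 1 read stands for 1 fragment is not stated.

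Group differences on log2(FPKM + 1) were tested in R 4.3.3 using limma 3.58.1, with a mean-variance trend and Benjamini-Hochberg adjustment over all features tested at 0.05. Features entered a fit if 3 or more of its libraries reached 1 FPKM. Contrasts within an organ used its 12 libraries, and the others all 24. All 69 members passed this filter in shoots and over all libraries, and 47 in roots. The fits were tested on simulated data first. Tables used pandas 2.3.3 and numpy 2.4.6 under Python 3.11.15, and plots matplotlib 3.10.9.

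The members, the limits and the lists were chosen with earlier results of these data known. Named members were the 2 per direction with the largest smaller shoot response at 5 FPKM or more and the 2 with the highest root levels. Also named were the 2 widest cultivar differences per sign and organ and the neighbours of each limit. The members with the largest and the smallest shoot L in ST minus L in SS were added to these. Marker and pathway lists by gene name could not be matched and are not reported. Alternatives were pseudocounts of 0.1 and 0.5, median-of-ratios and quantile scaling, group medians, other root limits, other filters, a test on the recovered reads, a replicate block and leaving out each library.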

Additional observations from a re-analysis of the deposited data

Results flagged for a closer look

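For 51 of the 69 members the difference between ST and SS under water was not the same in shoots and roots by the interaction test, beside 64.5% of all features. Of these 51, 16 belong to the 22 members that did not pass the filter in roots, for which the test largely restates the difference in shoots, and 35 to the other 47. On the log2(FPKM + 1) scale, the ST minus SS difference in shoots less that in roots was -1.76 for Zm00001d003197 (SE 0.14, limma adjusted p = 8.50e-10), which was lower in ST shoots and higher in ST roots. It was 2.42 for Zm00001d016841 (SE 0.10, limma adjusted p = 5.50e-15), lower in ST in both organs and more so in roots. It was 2.68 for Zm00001d018455 (SE 0.15, limma adjusted p = 2.03e-12) and 1.95 for Zm00001d024068 (SE 0.12, limma adjusted p = 1.37e-11), both higher in ST shoots and near 0 FPKM in roots, where a difference could hardly show. The members listed here were picked by a wide cultivar difference in shoots or roots, which is part of this estimate. Only those called in the interaction are listed, so their p-values partly test what picked them.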

How the results depend on the processing

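Membership depended on the pseudocount and the root limit. With a pseudocount of 0.1, 175 features (57 risers, 118 fallers) met the rule, of which 46 were among the 69. Of the 129 features that only this pseudocount brought in, 91 were below 5 FPKM in every shoot group mean, and 21 below 1 FPKM. A root limit of 0.4 gave 44 members and one of 0.8 gave 92. Group medians in place of means gave 75, with 62 of the 69 among them. A pseudocount of 0.5 gave 101 members, median-of-ratios scaling 68 and quantile normalization 69, with 64, 65 and 63 of the 69 among them. Leaving out 1 of the 24 libraries gave 66 to 76 members, and 49 of the 69 were kept in all 24 such refits. Counts of members called stayed within 1.5 times their values under all alternatives run. Without 1 library they were 58 to 59 for ST against SS in watered shoots, 58 to 60 in salinity-treated shoots, 34 to 37 in watered roots, 37 to 40 in salinity-treated roots, 62 to 64 for shoots against roots of ST, 63 to 65 of SS, and 50 to 51 for the interaction. Within each organ, replicate numbers did not appear to pair the libraries: 2 of 36 same-numbered pairs had deviations correlated above 0.1. Shoot and root libraries of the same number were not compared in this way. A replicate block gave 59, 58, 38, 39, 63, 65 and 51 calls for the contrasts in that order. The limits are 3 libraries a group and the few reads behind low root values: for Zm00001d039914 the ST root L was 1.52 with a pseudocount of 0.1, against 0.41 with 1, and for Zm00001d003938 the SS root L was 1.71 against 0.56.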

Other observations

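Several members carry identifiers that are close in number, Zm00001d033229 with Zm00001d033231 and Zm00001d008869 with Zm00001d008872, all risers. In salinity-treated ST shoots Zm00001d033229 averaged 4.44 FPKM, against 1.001 FPKM in watered ST shoots, and in SS shoots 12.3 FPKM under salinity, against 4.59 FPKM under water. Zm00001d008872 averaged 2.69 FPKM under salinity and 0.303 FPKM under water in ST shoots, and 13.9 FPKM under salinity and 2.01 FPKM under water in SS shoots. These pairs were noticed in the list of members, and whether they lie side by side or share reads was not tested.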
